A study of Zea mays with 9 samples.

Results

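The 65 genes described here were higher in maize leaves grown beside neighbouring weeds than in leaves under an artificial far-red source or in weed-free leaves, while the artificial source left them near the weed-free level. They were chosen by their measured values from 30184 genes. A gene had to have a mean normalized count of at least 20 over the 9 libraries and a weed-free mean below 20000. Its lowest value beside weeds had to exceed all 6 other values. On the scale log2(mean + 1), its rise beside weeds over the weed-free control had to reach 0.7, and its difference between artificial light and control had to stay within 0.35 in either direction. Of the 30184 genes, 21116 passed the minimum, 20939 of these the maximum, 425 the separation of the libraries, 121 the rise and 68 the band, and 3 of the 68, asn3, gln3 and fnr1, were left out by the rule itself. The differences between groups given below are therefore a description of how the genes were picked and no test of it.

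The leaves were second leaves of seedlings aged 9 days of the maize hybrid CG108 x CG102 from the University of Guelph, a single genotype in all 3 groups. In the weed-free control (WF) the sample labels give a red to far-red ratio (R:FR) of about 1.5. In the biological low R:FR group (W), with a ratio of about 0.6, a grass turf served as a surrogate weed around maize raised in cups without root contact, and in the artificial low R:FR group (FR), also at about 0.6, lamps supplied the far-red light. There are 3 libraries in a group, and the leaves of 3 plants were pooled for each. The study's own methods give ratios that differ from those of the labels, so the ratios are approximate. The pots of the W group held living grass besides the change in light. Around the cup they held a mix of peat moss and perlite, where the WF and FR pots held baked clay granules. The study's methods also name plastic sheets between the pots for W and WF. In this comparison the light reflected by the grass and anything else that came with the grass or its pots cannot be told apart. The study's methods describe a blocked, randomized layout with replications, and the labels do not say whether the replicate numbers of the libraries are those blocks or whether the pools come from separate runs. The spread between libraries may therefore be partly technical.

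Plants sense neighbours through phytochromes, photoreceptors that switch between a red-absorbing and a far-red-absorbing form. Green leaves absorb red light and reflect far-red light, so a neighbour lowers R:FR before it casts shade, and lamps that add far-red light lower the ratio with no neighbour present. The leaf responses known as shade avoidance include changes in growth, pigments, water relations and hormone signalling. Flavonoids made through chalcone synthase, water channels of the vacuole membrane and receptors of the stress hormone abscisic acid belong to such processes. Each has a gene among the 65, known here by its name only, and 57 of the 65 have no gene name. The rule kept genes near the control level under artificial low R:FR, and a link of the 65 to shade avoidance was not tested.

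The reads assigned to genes came to between 22775151 and 40283408 per library, as recovered from the deposited normalized counts. W replicate 3 stood apart, with a mean distance to the other libraries of 0.909 on the log2 scale against 0.576 to 0.650 for the other 8 libraries. The totals in the study's own mapping summary match these libraries only if the WF and FR labels are exchanged. The groups are named here as the deposited labels name them. With those 2 labels exchanged, 70 genes met the rule, 48 of them among the 65. The tissue label was checked with genes of C4 leaves. Here pep1 (LOC542372), the carbon-fixing enzyme of the mesophyll, lay between 582580 and 763910 normalized counts in every library. A second gene that carries this name, LOC103645871, had 58.7 to 82.4 normalized counts. The meristem gene kn1 lay between 0 and 5.06. The root hair gene rth3 was not near 0, with 46.7 to 145 normalized counts.

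Beside weeds the 65 genes were 1.64-fold to 3.73-fold above the control, with a median of 1.82-fold. The differences W minus WF ran from 0.70 to 1.89 on the log2(mean + 1) scale with a median of 0.86, and W minus FR ran from 0.44 to 1.81 with a median of 0.84. FR minus WF ran from -0.33 to 0.34 with a median of 0.08, and the FR mean lay above the WF mean in 43 genes and below it in 22. These comparisons share libraries, so their values are given side by side and not set against each other. Relative to the WF mean, the median of the 65 genes was 0.93 in W1, 0.77 in W2 and 0.96 in W3 (the number after the group is the replicate). It was 0.07 in FR1, 0.18 in FR2 and -0.09 in FR3. All 3 W libraries thus lay above the others, and W2 was the closest to them. In whole leaves, more cells that use a gene and more RNA per cell cannot be told apart.

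**Figure D1:**
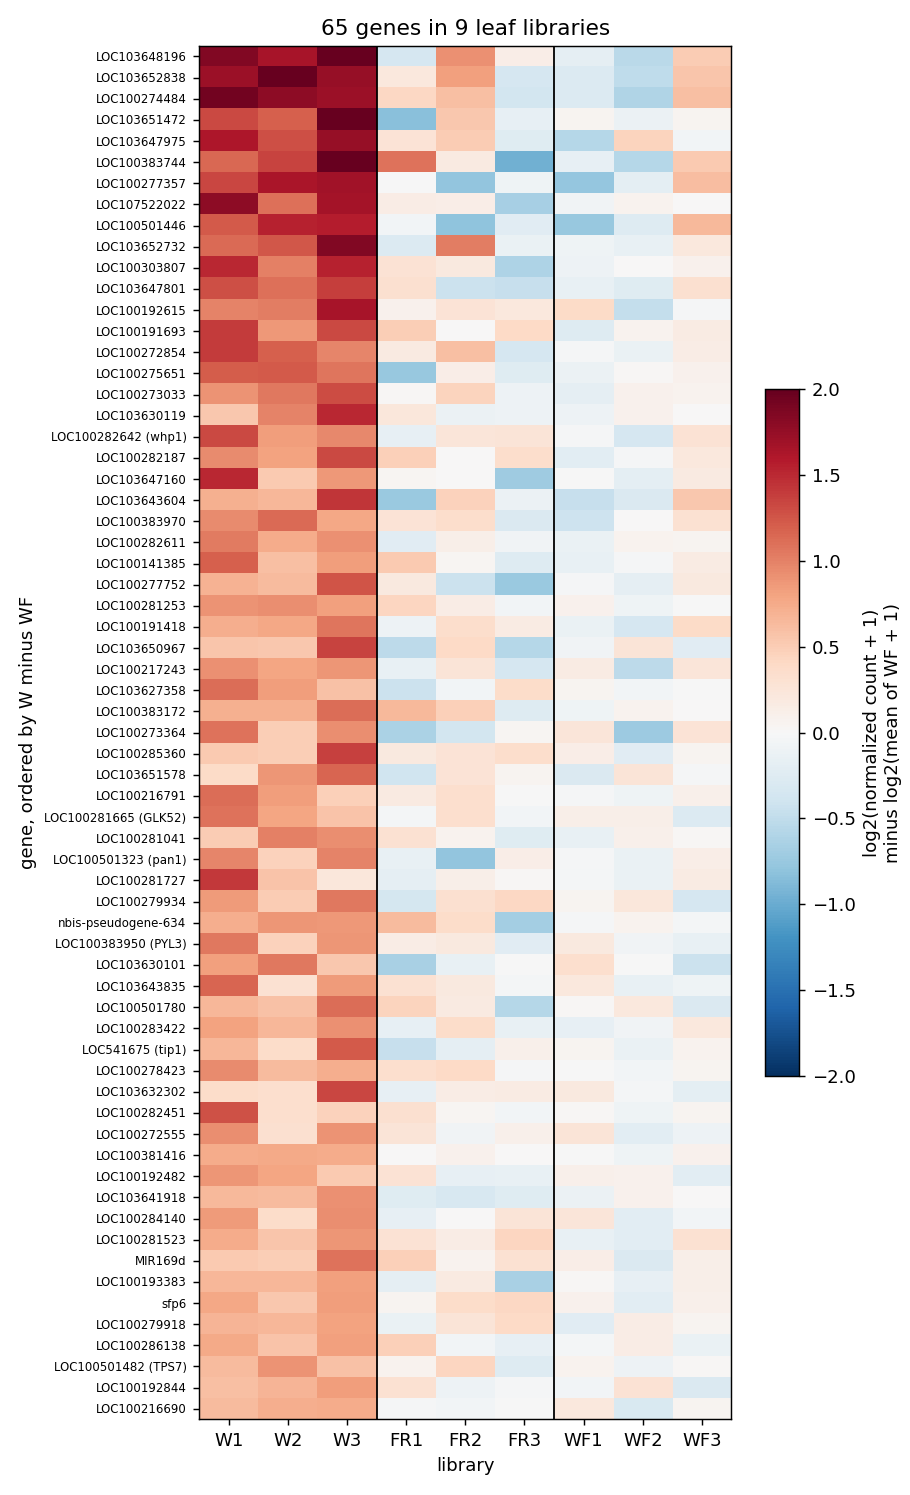
Heat map of the 65 genes (rows, ordered by W minus WF) in the 9 libraries (columns), with colour giving log2(normalized count + 1) minus log2(mean of WF + 1). The 3 W columns are red in every row, with medians of 0.93, 0.77 and 0.96, while the FR and WF columns scatter around 0.

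The separation was narrow for many of the genes. The lowest W value divided by the highest FR or WF value, each with 1 added, had a median of 1.20 and ran from 1.01 to 2.16. It was at least 1.1 in 46 genes, at least 1.5 in 13 and at least 2 in 1 gene, LOC100274484. Over all 21116 genes that passed the minimum, 2.02% had a lowest W value above all 6 others, a share that is printed for reference, since every one of the 65 was picked for it. The highest value outside the W group was an FR library in 48 genes (20 each in FR1 and FR2, 8 in FR3) and a WF library in 17.

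The genes at the edges of the rule show how close it ran. LOC100274484 passed with the lowest mean over all 9 libraries, 24.1 normalized counts, and LOC100282479 missed at 19.7. The ratio of the lowest W to the highest other value was 1.01 in LOC103643835, which was kept, and 0.988 in LOC100277272, which was not. For W minus WF, LOC100216690 passed at 0.703 and LOC100282724 (GLK44) missed at 0.6999. For FR minus WF, LOC100383172 passed at 0.34 and LOC100285228 missed at 0.36 on the upper side. On the lower side LOC100501446 passed at -0.33 and LOC103650854 missed at -0.36.

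**Figure D2:**
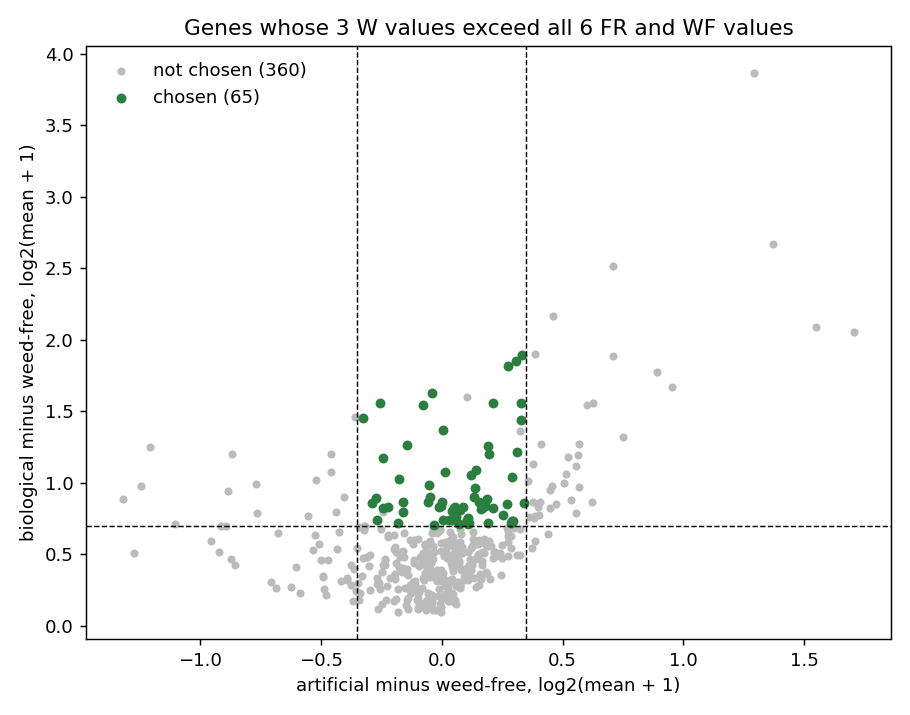
Each point is one of the 425 genes whose 3 W values exceed all 6 FR and WF values, with FR minus WF on the x axis and W minus WF on the y axis, both on the log2(mean + 1) scale. Dashed lines mark 0.7 on the y axis and 0.35 in either direction on the x axis, green points are the 65 chosen genes, and the 3 grey points inside the lines are the genes that the rule left out.

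In limma fits over all genes, 11 of 23600 genes (0.0466%) were called between W and WF at an adjusted p under 0.1, all of them higher in W. Among the 65 there was 1, LOC100275651 (log2 difference 1.17, SE 0.11, limma adjusted p = 0.0734). Since the rule used the values of every group, nothing is read from any count of the 65 in these fits. With the replicate number as a block limma called 1 gene and 0 of the 65, so that LOC100275651 lost its call. At an unadjusted p under 0.05, 64 of the 65 were higher against 5.53% of all genes tested. DESeq2 on the recovered reads called 42 of the 65 higher against 1.06% of all genes tested, and edgeR called 1, again LOC100275651, against 0.0511%. Between W and FR limma called 0 genes of 23476 (0%) and 0 of the 65, with 58 of the 65 higher at an unadjusted p under 0.05 against 6.15% of all genes. With the replicate block that count stayed at 58, against 7.11% of all genes. There DESeq2 called 20 of the 65 higher (0.659% of all genes tested) and edgeR called 0 (0%), with 47 higher at an unadjusted p under 0.05 against 4.83%. Both left out FR2, although its values gave whole reads too, and neither was run with it. FR2 was the highest library outside W in 20 of the 65. These counts may therefore differ from counts over all libraries. Between FR and WF limma called 5121 of 23450 genes (21.8%) and 0 of the 65, with 0 at an unadjusted p under 0.05 against 30.1% of all genes. In that comparison, again without FR2, DESeq2 called 1 of the 65, LOC100275651, lower in FR, against 14.6% of all genes in either direction. edgeR called 3, LOC100275651 and LOC100193383 lower and LOC100191693 higher, against 22.7%. For these 3 in that order, FR minus WF over all libraries was -0.24, -0.18 and 0.31 on the log2(mean + 1) scale. In edgeR without FR2 the log2 differences were -0.49, -0.42 and 0.43.

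W replicate 3 decided the count of calls. Without it limma called 1936 genes between W and WF, 1071 of them higher (4.6% of the 23300 tested), and 45 of the 65 were among those higher genes. Without W2 limma called 163 genes between W and WF, without WF3 it called 3, and without W1, WF1 or WF2 it called 0. Between W and FR, without W3, it called 104 genes, 65 higher (0.281% of those tested), with 4 of the 65 genes described here among them. W3 was the highest of the 3 W libraries in 36 of the 65 genes (55.4%), against 42.7% of the 20939 expressed genes, W1 in 20 and W2 in 9. W2 was the lowest of the W libraries in 36.

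Of the 65 genes, 63 are annotated as protein-coding, 1 is a microRNA locus and 1, nbis-pseudogene-634, is not in the RefSeq table used. Only 8 carry a gene name beyond a locus number or clone name, and for the other 57 no function is given here. The named genes are taken first, by role, with positions from RefSeq on the build Zm-B73-REFERENCE-NAM-5.0.

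whp1 (LOC100282642, chromosome 2, 230438497 to 230442131) encodes a chalcone synthase, the enzyme of the first committed step of flavonoid synthesis, and is the duplicate of c2. Its normalized counts were 1521, 1080 and 1183 in W1 to W3, 543, 715 and 722 in FR1 to FR3 and 594, 482 and 744 in WF1 to WF3. Its lowest W value was thus 1.45 times the highest of the others, which was WF3, and FR and WF overlapped. The means were 1261 ± 231 in W, 660.0 ± 101.1 in FR and 606 ± 132 in WF (SD, n = 3 in each group), a 2.08-fold difference between W and WF. whp1 stayed among the chosen genes when any single library was left out.

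tip1 (LOC541675, TIP1-1, chromosome 1, 10086567 to 10088583) encodes an aquaporin of the tonoplast, the membrane around the vacuole. It had 7087, 5800 and 10446 normalized counts in W, 3264, 3944 and 4819 in FR and 4656, 4098 and 4702 in WF. W3 stood far above W1 and W2, and the lowest W value, in W2, was still 1.20 times FR3. Per transcript length it held 296 ± 57.1 TPM (transcripts scaled for length and depth) in W, 165 ± 37.3 in FR and 184 ± 16.2 in WF (SD, n = 3).

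PYL3 (LOC100383950, chromosome 5, 155389303 to 155390393) belongs by its name to the PYR/PYL family of abscisic acid receptors, which inhibit protein phosphatases when they bind the hormone. The values were 216, 142 and 191 normalized counts in W, 114, 119 and 88.0 in FR and 118, 98.4 and 92.9 in WF. W2 was the nearest to the other groups, at 1.20 times FR2. The name PYL3 is also given to LOC100216590, a gene with a W mean of 3.50 normalized counts.

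GLK52 (LOC100281665, chromosome 10, 149397260 to 149400767) carries the name of the G2-like transcription factors, the family of golden2. It had 431, 349 and 301 normalized counts in W, 197, 254 and 194 in FR and 219, 220 and 167 in WF. Here W3 was the lowest W library, and it was 1.18 times FR2. A second gene of the family, GLK44 (LOC100282724), had 593, 608 and 618 normalized counts in W, 301, 377 and 218 in FR and 346, 349 and 424 in WF. It missed the rule only by its W minus WF of 0.6999, and its W values were closer to each other than those of GLK52.

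pan1 (LOC100501323, chromosome 1, 192178850 to 192181434) encodes PANGLOSS1, a receptor-like protein that polarizes the division forming the subsidiary cells of maize stomata. It had 67.0, 46.7 and 67.9 normalized counts in W, 30.2, 18.9 and 36.7 in FR and 33.1, 30.7 and 37.0 in WF. The lowest W value was 1.26 times the highest of the others, WF3, at a low level that makes each value less precise than those of abundant genes.

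MIR169d (chromosome 4, 49873250 to 49873377) is a precursor locus of miR169, a microRNA family whose targets are subunits of the NF-Y transcription factor. Its normalized counts were 63.2, 62.3 and 94.5 in W, 61.3, 45.9 and 54.3 in FR and 48.3, 35.8 and 47.4 in WF. W1 and W2 were hardly above FR1, with a ratio of 1.02, and only W3 stood clear. These reads come from a library of long RNA, a second annotated transcript overlaps the locus on the same strand, and the mature microRNA was not measured. In TPM the groups overlapped, with 9.43, 8.76 and 12.2 in W, 9.13, 6.98 and 8.23 in FR and 6.69, 5.01 and 9.63 in WF.

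Another pair of names does not settle a function. TPS7 (LOC100501482, chromosome 7, 112627243 to 112631039) has a symbol used both for terpene synthases and for trehalose-phosphate synthases, and LOC542156 carries it too. It had 2182, 2604 and 2098 normalized counts in W, 1468, 1894 and 1168 in FR and 1475, 1307 and 1417 in WF, with W3 at 1.11 times FR2. sfp6 (chromosome 3, 207302197 to 207306877) had 837, 707 and 868 in W, 504, 629 and 649.9 in FR and 519, 419 and 525 in WF. Its FR minus WF of 0.28 was near the upper end of the band, and its W minus FR of 0.44 was the smallest of the 65.

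**Figure D3:**
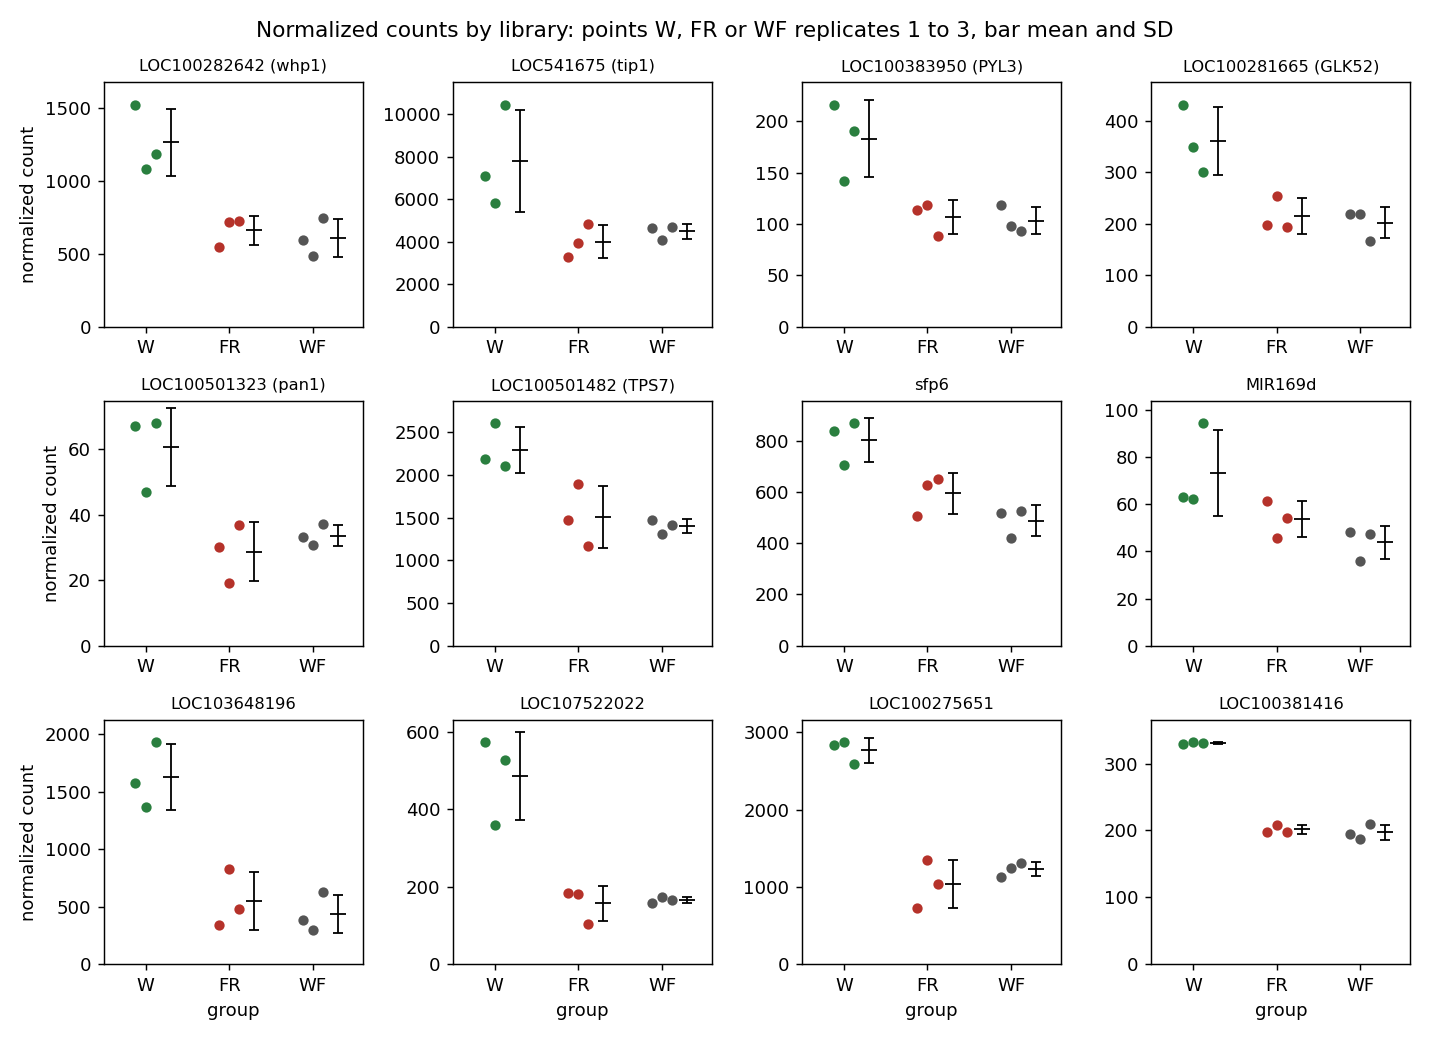
Normalized counts of 12 of the 65 genes in each library (y axis from 0), with the points of a group in the order of replicates 1 to 3 and a bar for its mean and SD (n = 3). The W points lie above all FR and WF points in each panel, as the rule required, by a ratio of 1.02 in MIR169d and 1.94 in LOC107522022.

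The genes with the largest fold differences between W and WF had no name. LOC103648196 (chromosome 10, 25583946 to 25584912) had the largest W minus WF on the log2(mean + 1) scale, 1.89, with 1571, 1364 and 1931 normalized counts in W, 345, 826 and 478 in FR and 385, 302 and 623 in WF, which is 3.71-fold from WF to W. FR2 lay well above FR1 and FR3, and the lowest W value was 1.65 times FR2. LOC103652838 had 98.6, 127 and 100.98 in W against 20.4 to 52.8 in the 6 others, a 3.70-fold difference. LOC100274484 had 49.3, 44.7 and 42.0 in W against 7.67 to 19.0 in the others, and with 3.73-fold it had the largest fold of the 65, at a W mean of 45.3 normalized counts. LOC103651472 (3.20-fold) and LOC103647975 (3.01-fold) completed the 5 genes at 3-fold or more, and 22 genes reached 2-fold.

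LOC100275651 (chromosome 2, 193039763 to 193040543) combined a high level with a tight W group. It had 2838, 2875 and 2585 normalized counts in W, 725, 1351 and 1039 in FR and 1126, 1251 and 1308 in WF. The W libraries spanned less than the FR libraries did, and the lowest was 1.91 times the highest of the others. In TPM, which allows levels to be compared between genes, it followed LOC103651578 and tip1 among the 65, with 152 ± 26.1 in W, 59.3 ± 15.1 in FR and 71.1 ± 7.23 in WF (SD, n = 3).

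LOC100381416 (chromosome 5, 23052342 to 23057166) had the least spread within W, with 329, 332 and 330 normalized counts against 198, 208 and 198 in FR and 195, 187 and 209 in WF. Its difference from WF was 1.68-fold, among the smaller of the 65, yet the lowest W value was 1.57 times the highest other value. LOC100282611 was similar, with 176, 143 and 161 in W against 73.03 to 92.7 in the others. LOC103641918 had 96.1, 95.5 and 116 in W against 48.8 to 65.2, and LOC103647801 had 130, 114 and 140 against 38.3 to 66.3.

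Several abundant genes without a name differed less and came close to the other groups. LOC100383172 (chromosome 4, 12766816 to 12768453) had 2595, 2601 and 3453 normalized counts in W, 2492, 2209 and 1320.4 in FR and 1488, 1673 and 1600.4 in WF. FR1 and FR2 thus lay between the W and WF libraries, and the lowest W value was 1.04 times FR1. LOC100272555 had 2787, 1814 and 2724 in W, 1749.7, 1382 and 1572 in FR and 1748, 1266 and 1362 in WF, with W2 near FR1 and WF1. LOC100278423 had 2308, 1859 and 1989 in W, 1516, 1587 and 1186 in FR and 1192, 1156 and 1254 in WF. Its lowest W value was 1.17 times FR2. LOC100216791 had 2139, 1752 and 1370.1 in W, 1117, 1234 and 979.8 in FR and 968, 929 and 1049 in WF, and in this gene W3 was the lowest of the W libraries.

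The spread within W differed between genes. The highest W value divided by the lowest ran from 1.01 in LOC100381416 to 2.28 in LOC100281727, with a median of 1.43. LOC100281727, which overlaps an annotated gene on each strand, had 852, 474 and 373 normalized counts in W, 280.4, 344 and 325 in FR and 311, 290.0 and 355 in WF. There W1 stood far above the rest, and W3 was the closest to the other groups, at 1.05 times WF3. In LOC103652732 W3 was far above the other W libraries, with 458, 494 and 759 in W, 172, 427 and 189.8 in FR and 197, 189 and 242 in WF. FR2 came within a ratio of 1.07 of the lowest W value there. LOC100192615 showed the same excess of W3, with 75.85, 77.9 and 120.4 in W against 26.8 to 49.2 in the others.

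Some genes moved together between libraries of the same group. LOC107522022 (chromosome 10, 147681185 to 147681959) had 574, 358 and 528 normalized counts in W, 184, 182 and 105 in FR and 158, 174 and 167 in WF. LOC100303807 (chromosome 2, 5668156 to 5669220) had 875, 621 and 894 in W, 374, 353 and 200 in FR and 287, 308 and 327 in WF. In both W2 was the lowest W library and FR3 the lowest of all, and over the 9 libraries their deviations from the group means correlated at 0.974. Over all 2080 pairs of the 65 genes the median of this correlation was 0.13, with 16 pairs at 0.9 or more and 793 below 0, so that most pairs did not share their scatter. These correlations rest on 9 libraries that share depth and preparation and are given as a description.

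The pair with the closest likeness was LOC100277357 and LOC100501446, at 0.995. They lie on opposite strands of the same stretch of chromosome 7, at 168937143 to 168937689 and 168937171 to 168937691. LOC100277357 had 350, 432 and 447 normalized counts in W, 138, 79.8 and 130 in FR and 80.6, 121 and 214 in WF, and LOC100501446 stayed within 1.21-fold of it in every library. LOC100501446 was listed at 0 TPM in all 9 libraries. The counting is not stated to use strand, so the reads of these 2 genes cannot be told apart and they count as 1 measurement. LOC100273364 and LOC103647160 lie next to each other on the same strand of chromosome 2, 1084 bases apart with 0 annotated genes between them. LOC100273364 had 124, 82.0 and 111 normalized counts in W, 37.0, 44.9 and 59.7 in FR and 68.9, 34.5 and 70.1 in WF, and LOC103647160 had 60.7, 30.1 and 38.8 in W against 12.2 to 23.7 in the others. In both W1 was the highest and W2 the lowest of the W libraries.

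In TPM 55 of the 65 genes had their 3 W values above the 6 others, against 1.27% of the 21116 genes past the minimum. TPM comes from the same reads that the rule used, so nothing is read from that count. LOC100501446, 1 of the other 10, is listed at 0 TPM throughout and could not separate. The W means ran from 0 to 3451 TPM. The highest, LOC103651578, is uncertain, since it had a mean of only 40.5 normalized counts in W beside 3451 TPM. After it and tip1 came LOC100275651, LOC100272555 (95.7 ± 21.2 TPM in W, 66.6 ± 10.6 in FR and 61.3 ± 9.90 in WF, SD, n = 3) and LOC100383172 (73.4 ± 3.87, 54.0 ± 16.3 and 42.5 ± 2.61). The ranges of these last 2 genes in W overlapped, so their order is not set. LOC100278423 followed LOC103648196 with 43.3 ± 7.02 TPM in W, and LOC100216791, which overlaps a gene on the other strand, with 37.4 ± 10.6.

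The other genes of the families named above are given for reference. The families were put together by symbol after the values had been seen, so their counts are only a description, and the genes named from them were chosen with their values known. The plasma membrane aquaporins were added to these families and hold no chosen gene. In each other family the counts include the chosen member. Between W and WF limma called 0 genes in each of the 8 families, edgeR called 0 in each, and the median log2 difference of all genes tested was -0.05. Of the 8 flavonoid genes tested, 5 were higher in W at an unadjusted p under 0.05 and DESeq2 called 4 higher, with a median of 0.77 (all genes: 5.53% and 1.06%). They include a2 (LOC100127010), the anthocyanidin synthase, at 4.30 for W minus WF and 4.01 for FR minus WF on the log2(mean + 1) scale. Its WF counts were 1.79, 1.28 and 28.4, and without WF3 these differences were 6.49 and 6.19. LOC606406, which also carries the name a2, stood at -0.02 and -0.23. bz1 (LOC732800), a flavonoid glucosyltransferase, stood at 1.59 for W minus WF and 1.57 for FR minus WF. In whp1, for comparison, FR minus WF was 0.12. c2 (LOC100274415), the other chalcone synthase gene, stood at 0.48 for W minus WF and -0.31 for FR minus WF. Between FR and WF limma called 6 of the 8 flavonoid genes, 3 higher and 3 lower, against 9.98% and 11.9% of all genes tested.

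Of the 6 tonoplast aquaporin genes tested, tip1 was the only one higher in W at an unadjusted p under 0.05 and 2 were lower, against 4.53% of all genes, with a median of -0.51. One of the lower genes, TIP4-1 (LOC541897), stood at -2.59 for W minus WF and -2.18 for FR minus WF on the log2(mean + 1) scale. It had 364, 943 and 181 normalized counts in W, 299.9, 1493 and 188 in FR and 2607, 4135 and 2235 in WF. Without W2 the first difference was -3.45, and without FR2 the second was -3.61, both chosen after the data had been seen. DESeq2 called 1 of the family higher and 1 lower, against 0.424% of all genes lower. Among 10 aquaporin genes of the plasma membrane the median was 0.45, 3 were higher at an unadjusted p under 0.05, and DESeq2 called 2 higher. Between FR and WF limma called 2 tonoplast genes lower and 5 plasma membrane genes higher.

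Over all genes, 5.53% were higher and 4.53% lower in W than in WF at an unadjusted p under 0.05 in limma, and DESeq2 called 1.06% higher and 0.424% lower. Among 9 abscisic acid receptor genes 4 were higher in limma at that p, with a median of 0.24, and DESeq2 called 4 of 11 higher. PYL5 (LOC100281868) stood at 1.34 for W minus WF and 1.23 for FR minus WF, against 0.82 and 0.05 in PYL3. Among 10 G2-like genes 3 were higher at that p, with a median of 0.21, and DESeq2 called 2 of 11 higher. Of 4 miR169 precursors 2 were higher at that p, with a median of 0.74, and DESeq2 called 0 of 9. Of 15 genes with a TPS symbol 7 were higher and 3 lower at that p, with a median of 0.37, and DESeq2 called 5 of 18 higher and 1 lower. Of 7 sfp genes 2 were higher and 2 lower, with a median of 0.23, and DESeq2 called 2 of 7 higher. Between FR and WF limma called 5 of 10 G2-like, 3 of 9 receptor, 6 of 15 TPS and 1 of 7 sfp genes, all higher in FR, and 0 of 3 miR169 precursors, against 9.98% of all genes higher. Between W and FR limma and edgeR called 0 genes in each of the 8 families. At an unadjusted p under 0.05, which 8.36% of all genes passed there, limma passed 1 tonoplast and 1 plasma membrane aquaporin gene, 3 flavonoid, 0 miR169, 2 G2-like, 1 receptor, 5 TPS and 4 sfp genes. Of the 5 TPS genes only LOC100501482 was higher in W (0.62). LOC541974 (-0.65), LOC542156 (-0.45), LOC732758 (-1.56) and LOC732759 (-1.32) were lower. Of the 4 sfp genes sfp2 (0.36) and sfp6 (0.44) were higher and sfp1 (-0.48) and sfp5 (-0.84) lower. The passing genes of the other families were higher in W. In either direction DESeq2, without FR2, called 2 flavonoid, 1 G2-like and 3 TPS genes, against 0.828% of all genes.

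The 65 genes were short, a property the rule did not use, and so were the wider sets they came from. The median annotated length of the 64 with a position was 2020.5 bases (lowest 128, highest 12032) against 3941.5 bases over 20644 expressed genes, and 48.4% of them were under 2000 bases long against 19.4%. Of the genes whose lowest W value exceeded all 6 others, 422 have a position, with a median of 2855.5 bases and 32.5% under 2000. The 120 of these that also reached 0.7 for W minus WF had a median of 2327 bases and 44.2% under 2000. Length moved with the libraries as well. In W3 genes under 1000 bases had a median of 0.35 above the WF mean on the log2 scale and genes of 10000 bases or more had -0.52, whereas in each of the other 8 libraries these medians lay between -0.09 and 0.09. In W1 and W2 the genes under 1000 bases had medians of -0.09 and -0.08, the opposite sign to W3. From W minus WF of the 64, the median of the expressed genes in the same length class was subtracted. The differences then ran from 0.64 to 1.83 with a median of 0.83, and 58 stayed at 0.7 or more. The separation of the libraries was not recomputed in this way, and the part of gene length in the choice of the 65 was not tested. Genes in mirror image, whose highest W value lay below all 6 others, numbered 369 and were long, with a median of 4944 bases.

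**Figure D4:**
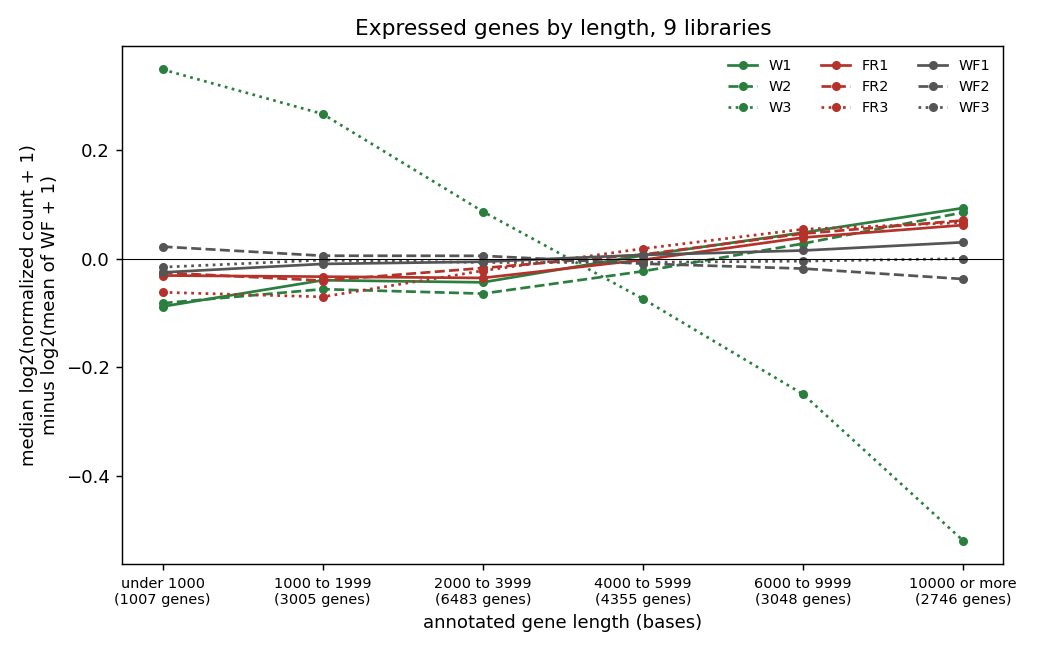
Median log2(normalized count + 1) minus log2(mean of WF + 1) of expressed genes (y axis) by class of annotated gene length in bases (x axis), with 1 line for each of the 9 libraries. The line of W3 falls from 0.35 to -0.52 and the other 8 stay between -0.09 and 0.09.

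The genes lay on all 10 chromosomes, with 12 on chromosome 1 (18.8%, against 15.6% of the expressed genes), 12 on chromosome 2 (18.8% against 11.9%) and 10 on chromosome 5 (15.6% against 11.97%). Chromosome 8 held 1 (1.56%), LOC100273033, although 9.03% of the expressed genes lie there. LOC100273033 had 410, 458 and 544 normalized counts in W, 224, 300.1 and 205 in FR and 195, 234 and 231 in WF. Its lowest W value was 1.36 times FR2, the highest of the others.

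Which genes met the rule depended on single libraries. With 1 library left out the rule took between 67 and 154 genes, since fewer values had to be separated, and between 45 and 62 of the 65 were among them. The fewest, 45, remained without W3, when 126 genes met the rule. There were 14 genes that remained in each of the 9 runs that left out 1 library. They include whp1, LOC107522022, LOC100303807, LOC100273033, LOC103647160, LOC100282611 and LOC100381416. Of these, 5 also met the rule under every other planned setting, namely whp1, LOC107522022, LOC100303807, LOC100273033 and LOC100383970. LOC100383970 had 173, 199 and 155 normalized counts in W, 109, 115 and 73.5 in FR and 67.1, 90.7 and 112 in WF.

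**Figure D5:**
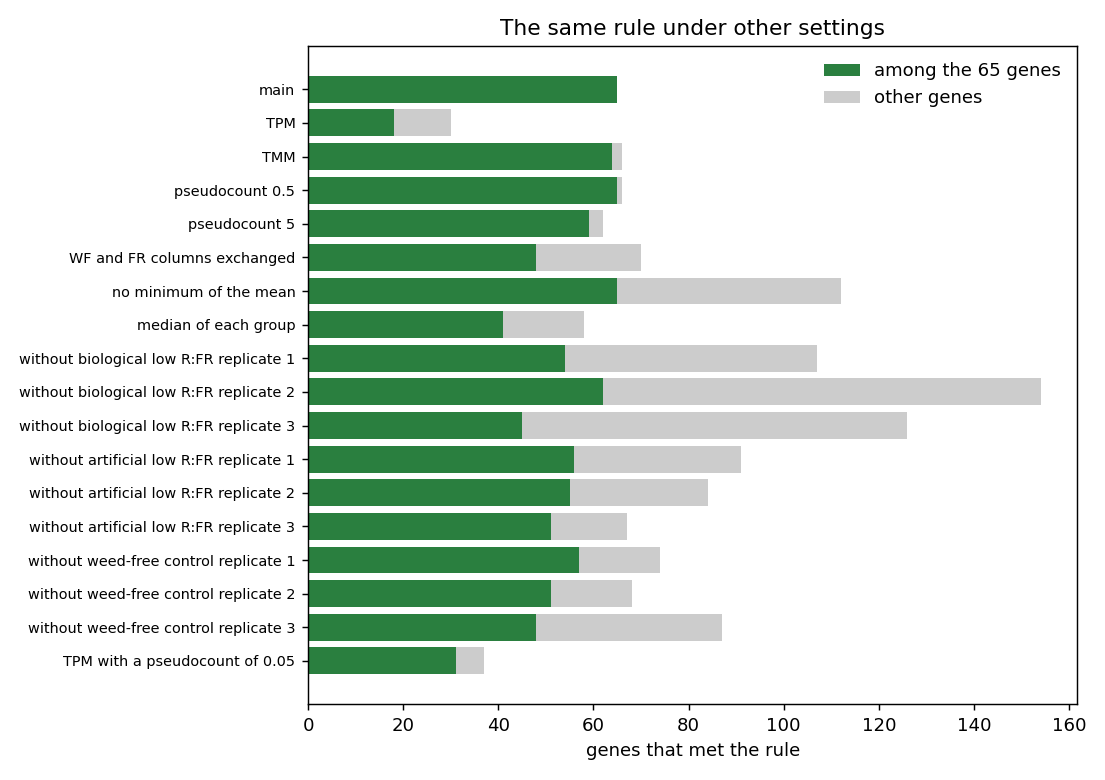
Number of genes that met the same rule (x axis) under each setting (y axis), with genes among the 65 in green and others in grey. The share of green is smallest in the 3 runs that leave out a W library, which took 107 to 154 genes, and scaling by TMM kept 64 of the 65.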

How the data were processed

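RNA-seq was deposited for 9 libraries, which were grouped as their labels say, with 0 value columns that matched no library. The deposited signal table holds normalized counts, in which the authors divided each gene's reads by 1 DESeq2 size factor per library. The authors also deposited a TPM value for each gene in each library. The submitters' notes name Bowtie2 2.4.3, HTSeq 0.13.5 and DESeq2 1.30.1, and the study's methods name Fastp, STAR and featureCounts, so the aligner and counter are uncertain. Deposited comparison tables hold the authors' fold changes and p-values and were not used.

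Division by what 1 read is worth gave whole reads for 100% of values in each library, within 0.01. In FR2 that step is 0.997. Before division its values are not whole (826.44 in LOC103648196, for example), so they are not undivided reads. The tests on reads nonetheless left FR2 out where FR was compared, and they were not run with it. At these steps 10 normalized counts are close to 10 reads.

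Each pair of groups was compared over its 6 libraries with limma 3.58.1 on log2(value + 1), with a variance trend, over genes at 10 or more in at least 3 libraries, with Benjamini-Hochberg adjustment over every gene in the fit. edgeR 4.0.16 (quasi-likelihood test) and DESeq2 1.42.0 used the recovered reads (R 4.3.3). The scripts were tested on simulated data. Tables and figures were made with pandas 2.3.3, numpy 2.4.6 and matplotlib 3.10.9 in Python 3.11.15.

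The 65 genes and all lists were chosen with earlier results of these data known. The text names genes with a symbol, the 15 with the widest ratio of lowest W to highest other value, the 12 with the highest TPM in W, those at each threshold and those fewer than 5 genes apart, and a few more, chosen after their values were seen, in the accounts of families, chromosomes and settings. Names and positions come from a RefSeq table, in which 64 of the 65 have an entry. It holds no descriptions or sequences, so 46 lists by function could be matched by symbol only (15 held any gene and 0 held one of the 65), and planned promoter motifs were not searched. Same-numbered libraries of W and FR deviated from their group means together (correlations 0.124, 0.255 and 0.146, all over 0.1). The labels do not pair them, and W1 and WF1 also correlated at 0.124, so these values do not settle a pairing. The study's methods describe a randomized block layout without tying library numbers to its blocks. Alternatives were TPM, TMM, pseudocounts of 0.5 and 5, medians, no filter on low values, exchanged WF and FR labels, a threshold of 0.05, 1 fit of all 9 libraries, a replicate block, DESeq2, edgeR and leaving out each library. TPM with a pseudocount of 0.05, and a2 and TIP4-1 without single libraries, were added after the data were seen.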

Additional observations from a re-analysis of the deposited data

How the results depend on the processing

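The count of genes called between W and WF, 11, was 2 at an adjusted p under 0.05, 63 in TPM, 94 with all 9 libraries in 1 fit, 449 with DESeq2 and 0 to 1936 when 1 library was left out, 1936 without W3. Between W and FR, where 0 were called, it was 24 with a pseudocount of 5, 26 in TPM, 263 in 1 fit, 250 with DESeq2 and 0 to 104 without 1 library, 104 without W3. Between FR and WF, where 5121 were called, it was 2931 at 0.05, 1134 in 1 fit and 2305 (without WF3) to 5408 (without FR2). With the replicate number as a block the counts were 1 between W and WF, 0 between W and FR and 5120 between FR and WF. Same-numbered libraries of W and WF correlated at 0.124, -0.007 and 0.056 in their deviations and those of FR and WF at -0.003, 0.083 and 0.095. With a cut of 0.1 for all 3 numbers, only those of W and FR were taken to pair libraries. This cut does not settle the pairing, since W1 and WF1 correlated as much as W1 and FR1 (0.124 each). If the numbers are blocks, they would hold for all 3 groups. Between W and FR the block left 0 calls, while genes at an unadjusted p under 0.05 went from 1962 to 2331. The number of genes meeting the rule, 65, was 30 in TPM, 37 in TPM with a pseudocount of 0.05 (added after the data were seen), 112 without the minimum of the mean and 67 to 154 without 1 library, 154 without W2. The median W minus WF of 0.86 was 0.63 in TPM and 0.82 to 0.96 without 1 library, lowest without W3 and highest without W2. The median W minus FR of 0.84 was 0.59 in TPM and 0.73 in TPM with a pseudocount of 0.05. In TPM a pseudocount of 1 weighs more on genes of low level than it does in normalized counts. Of 854 values of single named genes under these settings 26 moved by more than the spread between replicates and 0 changed sign. The moves were not even over the settings. In TPM 22 values moved and 42 did not, while 3 moved in TPM with a pseudocount of 0.05 and 1 with a pseudocount of 5. Each run without 1 library held 66 values, all unmoved, and these runs make up most of the 854. The other causes were not tested. Genes near the minimum rest on few reads, so a separation of a few reads decides their place on the list.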
